A study of Mus musculus with 4 samples.

Results

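The miRNAs described here are the star-named strands of mouse miRNA hairpins on the array, for example miR-30a* beside miR-30a. They were taken by name, as mouse miRNAs whose name ends in a star, and 88 of the 114 star-named miRNAs and of the 567 mouse miRNAs on the array were members. Another 13 lie in the large miRNA cluster of distal chromosome 12 and were left out, as were 3 of the miR-467 family and 10 listed by name (miR-17*, miR-18a*, miR-24-1*, miR-24-2*, miR-29c*, miR-30c-1*, miR-34c*, miR-463*, miR-470* and miR-742*). Statements on stars below are on the 88 members. An unstarred partner of the same hairpin was on the array for 87 members, and since 3 partners (let-7c, miR-181a and miR-218) serve 2 stars each, there were 84 partners.

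RNA came from Sertoli cells, which carry the androgen receptor and nurse germ cells within the tubules of the testis, and 4 arrays were read. The mice were B6129 males of 5 to 7 weeks, and Sertoli cells of 5 to 7 mice were pooled per RNA sample. Sham mice (1 array) carried a Silastic tube under the skin and received saline. Flut+Acy mice (2 arrays) carried flutamide, an antagonist of the androgen receptor, in the tube and were injected with acyline, which blocks the receptor for gonadotropin-releasing hormone. Flut+Acy+T mice (1 array) had the same flutamide and acyline and testosterone from a tube as well. The labels name the groups only as control, flutamide and testosterone. Whether the Flut+Acy arrays came from separate pools is not stated in them, so the spread between these arrays may be technical.

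A miRNA hairpin is cut by Dicer into a short duplex. One strand, the guide, is kept by an Argonaute protein and directs it to messenger RNAs through its seed, and the other strand, the passenger, is mostly released and degraded. The star in the older names marked the arm that had been found less often, so a star strand can still be the abundant arm in some tissues, and miR-140* is a known case.

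The sequences of the stars that were measured on the Sham and Flut+Acy arrays are shown first, because the seed decides which messages an arm could bind. They run 5′ to 3′ with the seed (bases 2 to 8) in capitals, and were read from RefSeq (GRCm38.p6), where 78 of the 88 members had an entry. For miR-30a the partner is given as well, to show that the arms of a hairpin carry unrelated seeds.
miR-30a*: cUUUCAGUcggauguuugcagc
miR-30e*: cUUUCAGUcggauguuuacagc
miR-30c-2*: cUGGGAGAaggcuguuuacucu
miR-30a: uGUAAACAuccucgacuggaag
miR-140*: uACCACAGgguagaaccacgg
miR-135a*: uAUAGGGAuuggagccguggcg
miR-150*: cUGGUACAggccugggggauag
The passenger strands of miR-30a and miR-30e shared their seed, and that of miR-30c-2 did not, although the guides of all of them carry the miR-30 seed. miR-199b* and miR-712*, which had high signals as well, are among the 10 members with no entry that could be matched. The let-7 stars also held a group with 1 seed, UAUACAA in let-7b*, let-7f* and let-7c-2*, while that of let-7d* was another.
let-7b*: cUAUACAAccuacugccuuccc
let-7f*: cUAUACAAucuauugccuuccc
let-7c-2*: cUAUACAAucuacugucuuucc
let-7d*: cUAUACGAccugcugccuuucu
The probes for let-7c-2* are also listed in the files for let-7a*, so these strands cannot be told apart here. As a set, the matched stars differed from their partners in base make-up. A U is the first base most often found in guide strands, and it opened 42 of 72 partners but 11 of 78 stars, of which 34 began with C. The median GC content was 50% for stars and 42.9% for partners, and 52 of the 78 stars were the 3p arm.

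Star strands were rarely detected on any array, and far less often than their partners. The detection flag of the scanner software was set for 9 of 88 stars in Sham cells (10.2%), for 15 and 18 with Flut+Acy (17% and 20.5%) and for 12 on Flut+Acy+T (13.6%). For the 84 partners it was set for 52 (61.9%), 64 (76.2%), 64 (76.2%) and 31 (36.9%), and for all mouse miRNAs for 34%, 48.5%, 47.6% and 18%. Partners and all miRNAs were thus detected least often on Flut+Acy+T, whereas stars were detected there more often than on Sham. That order turned where a probe had to have all its unflagged spots well above background, with 6 stars on Sham and 2 on Flut+Acy+T. The signal used here is the total gene signal, a sum over the probes of a miRNA in scanner units after background subtraction, which can be below 0. Its median over the stars was -1.12 on Sham, -0.119 and 1.10 in the Flut+Acy pair and -6.78 on Flut+Acy+T, at or close to background on each, and over the partners it was 19.8, 88, 111 and 121. The star had the lower signal in 75, 79, 78 and 63 of 87 pairs. Star and partner are read by different probes, so a lower signal does not show which arm was more abundant, and between groups only the change of one arm against the other is compared.

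**Figure D1:**
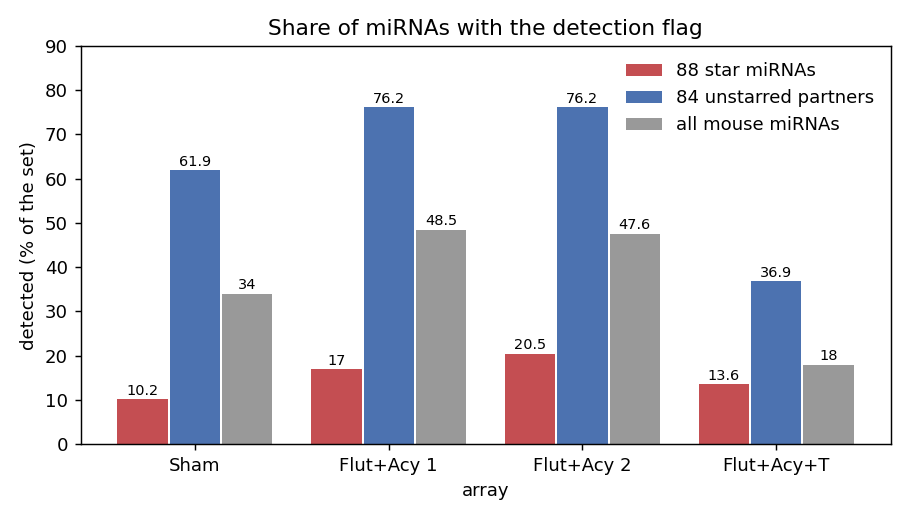
Share of the 88 star miRNAs, the 84 partners and all 567 mouse miRNAs (y axis, percent) with the detection flag on each of the 4 arrays (x axis). Stars lie between 10.2% and 20.5% on every array, below the partners on each of them.

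Of the 88 stars, 62 were detected on no array and 26 on at least 1. Detection on all 3 Sham and Flut+Acy arrays was seen for 8 stars, on both Flut+Acy arrays and not on Sham for 7, and on Flut+Acy+T alone for 8. For 31 stars the partner was detected on all 4 arrays, and in 16 of these the star was on none. An example is miR-21, a miRNA of many tissues, whose total signal was 1660 on Sham, 2760 and 2774 in the Flut+Acy pair and 3613 on Flut+Acy+T. miR-21* had -3.18, -3.78, -2.37 and 105 units and was not detected. The same held for all 3 stars of the miR-15/16 family, which acts on cell cycle genes, and for both stars of miR-27a and miR-27b, with partners detected on all arrays. None of the 6 member stars of the miR-17, miR-19, miR-25 and miR-92 clusters was detected, while all 6 partners were on all 3 Sham and Flut+Acy arrays. Of the stars of these clusters that were left out, miR-17* was detected on both Flut+Acy arrays and miR-18a* on Flut+Acy+T. The 2 miR-181 stars were not detected either, although miR-181a was on Sham and Flut+Acy. The same was true of the 4 miR-200 stars and the 6 stars of pluripotency miRNAs, but there at most 2 partners were detected on an array. In contrast, each of the 4 miR-30 stars and 6 of the 7 let-7 stars were detected on at least 1 array. Of the let-7 stars, let-7c-1*, let-7c-2* and let-7g* were detected on Flut+Acy+T alone. The counts for let-7 were 1 on Sham, 2 and 3 in the Flut+Acy pair and 5 on Flut+Acy+T.

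The stars measured on all 3 Sham and Flut+Acy arrays were miR-199b*, miR-150*, miR-712*, miR-140*, miR-30a*, miR-30e*, miR-135a* and miR-30c-2*. Every one of them had a lower total signal on Sham than on either Flut+Acy array. The mean of the Flut+Acy arrays over Sham had a median of 3.66 for these 8 stars, with a range of 1.28 to 9.27. It was 2.93 for the 52 partners detected on the same arrays and 2.92 for all 189 miRNAs detected on them, of which 187 were above 1. A higher signal on Flut+Acy was therefore common to nearly all miRNAs before normalization, and what differs between stars is how far each stood from that shift. Fewer cells of a type and less RNA per cell cannot be told apart in these pooled samples.

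miR-199b* (chr2:32174006-32174027, + strand, mm9) had the highest signal of the 88 stars on every array and was the only one of them detected on all 4. Its total signal was 296 on Sham, 396 and 441 in the Flut+Acy pair and 1312 on Flut+Acy+T, with software errors of 24.9, 33.0, 37.1 and 160. The partner miR-199b, of a family known from connective tissue and smooth muscle, had 982, 1780, 1967 and 3050 units. Star and partner were both lowest on Sham and highest on Flut+Acy+T, and before normalization the Flut+Acy mean was 1.41-fold Sham for the star and 1.91-fold for the partner.

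The miR-30 family is known to restrain epithelial to mesenchymal transition, and before normalization its stars were higher on Flut+Acy by about as much as their partners. miR-30a* (chr1:23279159-23279175, + strand) had 17.6 units on Sham, against 71.5 and 82.8 on Flut+Acy, and its partner 296, 980 and 1114. miR-30e* (chr4:120445223-120445240, - strand) had 16.8, 67.7 and 82.1 units, and its partner 136, 517 and 636. miR-30c-2* (chr1:23298596-23298614, + strand) was dimmer, at 8.04, 20.1 and 27.5 units, beside 360, 923 and 987 for miR-30c. The Flut+Acy mean over Sham was 4.37, 4.45 and 2.96 for the stars and 3.53, 4.25 and 2.65 for the partners. None of these stars was detected on Flut+Acy+T, where they had 122, 68.7 and 139 units with errors of 124, 124 and 124, although all the partners were detected there. Of the same family, miR-30b* was detected on the second Flut+Acy array alone, at 9.87 units, and is named here after its values were seen.

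miR-140*, from an intron of Wwp2 and known from cartilage, had 30.4 units on Sham, against 121 and 145 on Flut+Acy (chr8:110075194-110075208, + strand). Its partner had 60.2, 201 and 213 units. The Flut+Acy mean was 4.37-fold Sham for the star and 3.44-fold for the partner, and neither arm was detected on Flut+Acy+T.

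In 3 hairpins the star had the higher signal of the arms on Sham, with the star detected. miR-150* (chr7:52377177-52377189, + strand) had 36.6 units on Sham, 40.4 and 53.2 in the Flut+Acy pair and an undetected 25.3 on Flut+Acy+T. Its partner miR-150, a miRNA of mature lymphocytes, had 3.93 units on Sham, where it was not detected, and 9.51 and 15 on Flut+Acy. The Flut+Acy mean of the star was 1.28-fold Sham, the smallest of the 8 ratios. The blood markers (6 miRNAs, miR-150 among them) were detected 3, 5, 4 and 0 times on the 4 arrays, with a summed signal of 236, 382, 432 and 911 units and miR-144 on no array, and their part in this result was not tested. miR-712*, of a hairpin that lies in ribosomal RNA precursor sequence, had 31.7, 63.8 and 72.5 units beside 9.45, 35.8 and 55.1 for miR-712, so that its ratio was 2.15 and that of the partner 4.81. The files give no position for miR-712*. miR-135a* (chr9:106056519-106056531, + strand) had 11.5 units on Sham, against 93.2 and 121 on Flut+Acy, the largest of the 8 ratios at 9.27, while its partner stayed undetected on all arrays, with 1.51, 0.932 and 6.54 units on these 3. Of miR-712* and miR-135a*, neither was detected on Flut+Acy+T, at -53.6 and -123 units.

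**Figure D2:**
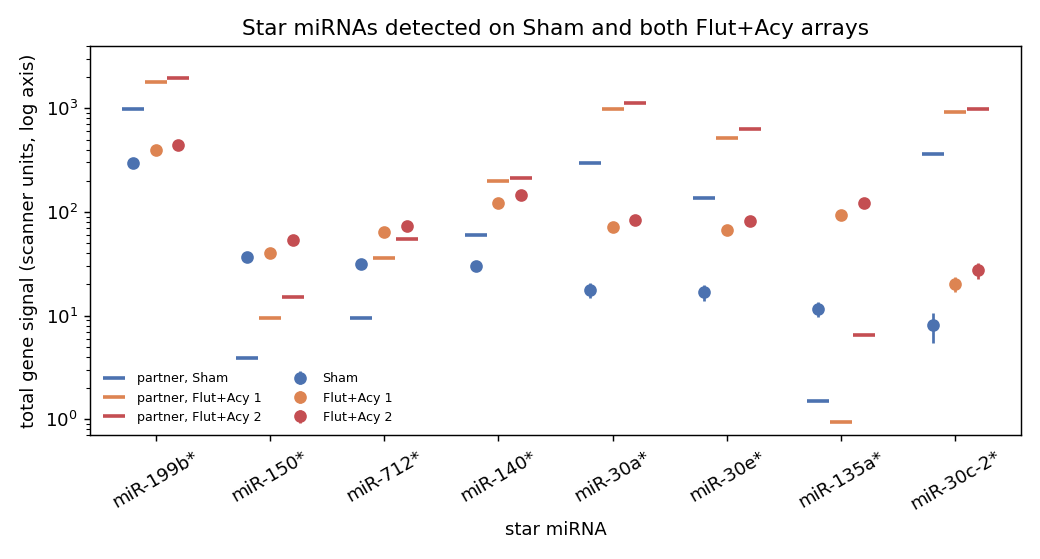
Total gene signal (y axis, scanner units on a log axis) of the 8 star miRNAs (x axis) detected on all 3 Sham and Flut+Acy arrays, as points with the error of the scanner software, and of their partners, as dashes, on the same arrays. The stars lie between 8.04 units (miR-30c-2*, Sham) and 441 units (miR-199b*, second Flut+Acy array), and all are lowest on Sham.

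**Figure D3:**
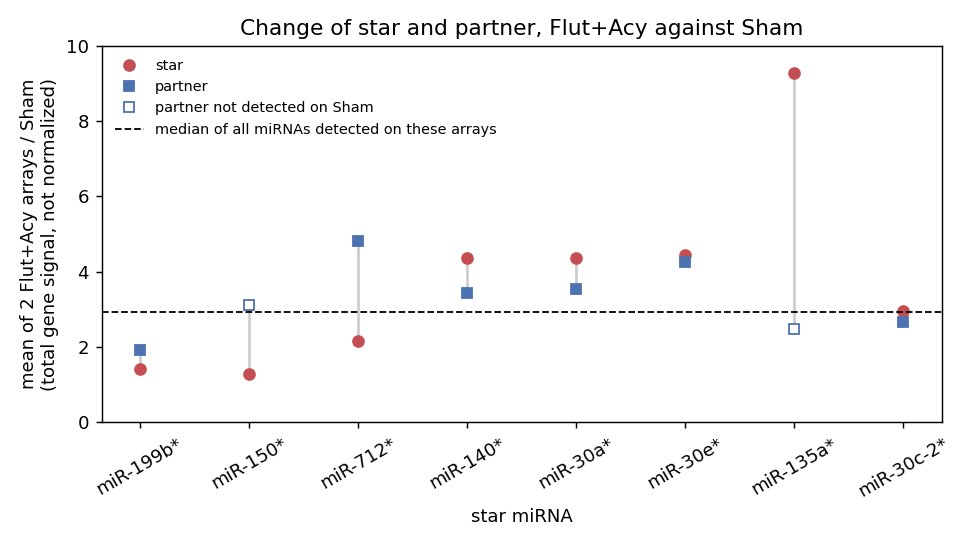
Mean total gene signal of the 2 Flut+Acy arrays divided by Sham (y axis, not normalized) for the 8 stars and their partners (x axis), with the median of 2.92 over 189 miRNAs as a dashed line. Star and partner lie close to each other in the miR-30 pairs and apart in miR-712, miR-150 and miR-135a. Open squares mark a partner not detected on Sham, which are miR-150 and miR-135a.

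The 7 stars detected on both Flut+Acy arrays and not on Sham were dim on these arrays. miR-483*, from an intron of Igf2, had 7.12 units on Sham, against 26.1 and 24.2 on Flut+Acy. miR-191* had 5.04 units on Sham, against 18.1 and 27.7 on Flut+Acy, with a partner below 0 on all 4 arrays. miR-22*, let-7b* and let-7f* had 6.71, 6.94 and 6.48 units on Sham and between 16 and 22.4 on Flut+Acy. These stars were higher on Flut+Acy before normalization, like nearly all miRNAs. After normalization their Flut+Acy means exceeded neither their own normalized Sham value nor, for the dimmest, the lowest value detected there (0 of 7), so no fold is given. The other 2 of the 7, named after their values were seen, were miR-674*, with 4.95, 6.98 and 11.1 units on these arrays, and miR-29b*, with 1.85, 3.85 and 8.20. Of the 15 stars detected on both Flut+Acy arrays, 14 had the higher signal on the second, by a median of 1.26-fold over all 15.

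The comparison of Flut+Acy with Sham was tested on normalized values. Total signals were quantile-normalized, which gives every array the same distribution and so removes a shift common to all miRNAs, and log2 values of the 298 miRNAs with a detection flag anywhere were compared by limma, at a Benjamini-Hochberg adjusted p under 0.05. The spread came from the Flut+Acy pair alone, with 1 residual degree of freedom, and the arrays without a replicate were taken to vary like it. Of the 26 stars tested, 0 were called higher and 11 lower (42.3%), where 54.0% of all miRNAs tested were called, 28.5% lower and 25.5% higher. Among 64 partners tested, 19 were higher and 13 lower. Of the 11 stars, only miR-199b*, miR-150* and miR-712* were measured on all 3 Sham and Flut+Acy arrays, and 3 (let-7c-2*, miR-130b* and miR-99b*) were detected on Flut+Acy+T alone, below detection on both sides of this comparison. The others (let-7b*, let-7f*, miR-22*, miR-29b* and miR-877*) were not detected on Sham but were on 1 or both Flut+Acy arrays. Their total signals were higher on Flut+Acy than on Sham, and they were lower only after normalization. The calls on 5 of the 11 rest on equal normalized values on the Flut+Acy arrays, which leave no spread to test against. miR-22* had the same value on both, and the other 4 (let-7c-2*, miR-29b*, miR-99b* and miR-130b*) lay at the floor of 5.46 units on both. On Sham these 4 were not detected, with normalized values of 21.0, 14.7, 22.9 and 17.6 units. Those values lie above the floor but below 23.6 units, the lowest detected on Sham, so these calls compare an undetected value with the floor.

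miR-199b* fell by 1.25 on the log2 scale (SE 0.0229, adjusted p = 0.0126 by limma), miR-150* by 1.43 (SE 0.0287, adjusted p = 0.013) and miR-712* differed by -0.88 (SE 0.0364, adjusted p = 0.0224). With no filter on detection none of these calls held, with adjusted p = 0.0788, 0.0847 and 0.115 by limma. The other stars measured on these arrays did not pass the test. The differences were 0.60 for miR-135a* (SE 0.0677, adjusted p = 0.055), 0.05 for miR-140*, -0.02 for miR-30a*, -0.01 for miR-30e* and -0.66 for miR-30c-2* (adjusted p = 0.0523). Tested over the miRNAs detected on these 3 arrays alone, miR-135a* and miR-30c-2* passed (adjusted p = 0.0438 and 0.0413). The direction of the stars depended on the scaling. With no normalization 12 stars were called higher and 0 lower, and with scaling to the 75th percentile of miRNAs detected on all 4 arrays 4 (miR-30a*, miR-30e*, miR-135a* and miR-140*) were higher and 1, miR-199b*, lower. The share called over all miRNAs is given for the main fit only, so these counts have none beside them. With no normalization and no test, 72.2% of 18 stars were at least 2-fold higher and 0% lower. Of the 283 miRNAs detected on Sham or a Flut+Acy array, 74.9% and 0.353% were. Under the 75th percentile scaling 5.56% of these stars were higher and 11.1% lower, beside 35.3% and 4.59%. miR-150* and miR-712* kept a lower normalized value on Flut+Acy under that scaling without passing the test, at -1.01 and -0.25.

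Measured against the shift of all miRNAs, the stars lay somewhat low under most settings. Over the 18 stars detected on Sham or a Flut+Acy array the median log2 difference was -0.62, with 15 below 0. The median was -0.05 over 64 partners and -0.18 over 283 miRNAs detected there. With no normalization the medians were 1.53, 1.80 and 1.75, and with the 75th percentile of miRNAs detected on all 4 arrays they were 0.18, 0.45 and 0.40. The stars thus lay below all miRNAs by 0.44, 0.21 and 0.21. Over the 8 stars measured on all 3 arrays this gap was not seen, with a median of -0.34 against -0.37 for the 189 miRNAs. At a threshold of 2-fold, with no test, 0 of 18 stars were higher and 6 lower, where 22.6% and 16.6% of the 283 miRNAs were. The 6 were let-7d*, miR-150*, miR-199b*, miR-29b*, miR-674* and miR-877*, and their count fell to 3 and 2 when the first or the second Flut+Acy array was left out.

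**Figure D4:**
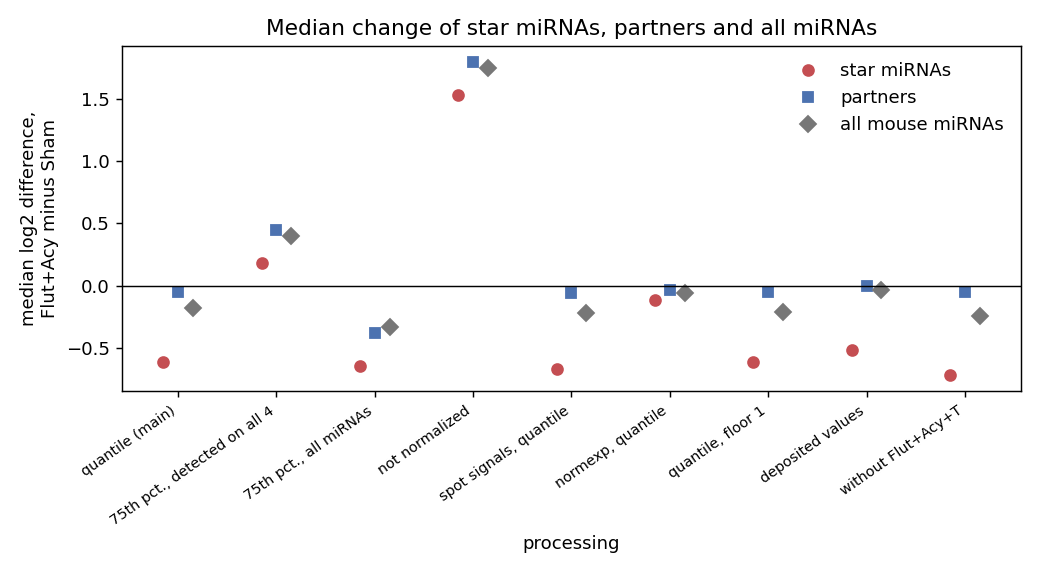
Median log2 difference between Flut+Acy and Sham (y axis) of the 18 stars, 64 partners and 283 miRNAs detected on Sham or Flut+Acy, under 9 ways of processing (x axis). All medians are above 0 with no normalization and with the 75th percentile of miRNAs detected on all 4 arrays and below 0 under the others, and the star median is the lowest of the 3 in each.

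Whether the arms of a hairpin changed unequally can be asked within an array, where a common factor for the whole array cancels. The quantile normalization used here is not such a factor. It can move a dim star and a bright partner unequally, so it does not cancel. The log2 signal of the star less that of the partner was compared between Flut+Acy and Sham with limma over 32 pairs whose arms were both detected on some array, of which 22 were members. Of these 22, star less partner was called higher in 2 and lower in 7 (31.8%), beside 9.38% and 37.5% over all 32 pairs (46.9% in either direction). The stars of the 2, let-7c-1* and miR-218-1*, lay at the floor on Sham and both Flut+Acy arrays. Their values of 0.56 and 1.29 are the partner differences of -0.56 and -1.29 with the sign turned, and neither star rose. With no normalization 0 of the 22 were called. For 5 of the 9 the star was detected on Flut+Acy+T alone, and for miR-22*, miR-29b* and miR-877* it was not detected on Sham, so that the Sham side of these calls is below detection. In 6 pairs both arms were measured on all 3 Sham and Flut+Acy arrays, and of these only miR-199b* was called, falling by 0.97 against miR-199b (SE 0.0544, adjusted p = 0.0249). Its fall was 0.43 and not called with no normalization (adjusted p = 0.165) and with either 75th percentile scaling (adjusted p = 0.117 and 0.0611). The difference was -0.81 for miR-712* (adjusted p = 0.135), 0.40 for miR-140* (adjusted p = 0.128), -0.26 for miR-30c-2*, and 0.02 for both miR-30a* and miR-30e* (SE 0.0226 and 0.035). Tested over the pairs measured on these 3 arrays alone, miR-712* and miR-140* were called as well (adjusted p = 0.00152 and 0.0228). For miR-30a* and miR-30e* the difference between the arms was smaller than its SE.

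The Flut+Acy+T array had a raised background, which bears on every star value taken from it. The SD of its 672 negative control spots was 1330 units, against 2.97, 2.72 and 7.45 on the other 3, and 225 of the spots (33.5%) were flagged well above background, against 4, 2 and 7. Of 12493 spots 535 were flagged as not uniform there, and 0, 2 and 4 on the others. The excess in the negative controls lay in certain probes. Besides the stem-loop control, with a median of -57.4 units, there were 6 negative control probes of 64 spots each, and their medians on Flut+Acy+T ranged from 41.7 to 2992 units. On the other arrays none exceeded 7.45. For 3 of the 6 all 64 spots were well above background. The median software error of a star was 87.7 units, against 1.74, 1.86 and 2.75.

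Of the 26 detected stars, 8 were detected on Flut+Acy+T and on no other array: miR-99b*, miR-29a*, miR-218-1*, let-7c-1*, let-7g*, let-7c-2*, miR-130b* and miR-744*. Over all mouse miRNAs there were 15 with this pattern, of which 11 were star-named, these 8 and 3 that were left out. miR-99b* had 959 units there (error 107) and 2.56, 3.32 and 7.79 on Sham and Flut+Acy. let-7c-2* had 549 units (error 92.3) and at most 6.66 elsewhere, and miR-130b* 501 units (error 93.0) and at most 7.21. miR-29a*, let-7c-1*, miR-744* and miR-218-1* had 402, 343, 363 and 332 units, and let-7g*, at 238 units, had the lowest signal of any miRNA detected on that array. Of the 20 spots of each, the number well above background was 8 for miR-99b*, 4 for miR-130b*, 3 for let-7c-2*, 2 for miR-29a* and let-7c-1*, and 1 for miR-218-1*, let-7g* and miR-744*. The median spot signals of the 8 lay between 120 and 558 units, with 5 of the 6 negative control medians above the lowest and 3 above the highest. Where a probe had to have all its unflagged spots well above background, 2 stars were detected on Flut+Acy+T in place of 12. The flag also did not follow the signal alone, since miR-26b* had 426 units there and was not flagged.

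**Figure D5:**
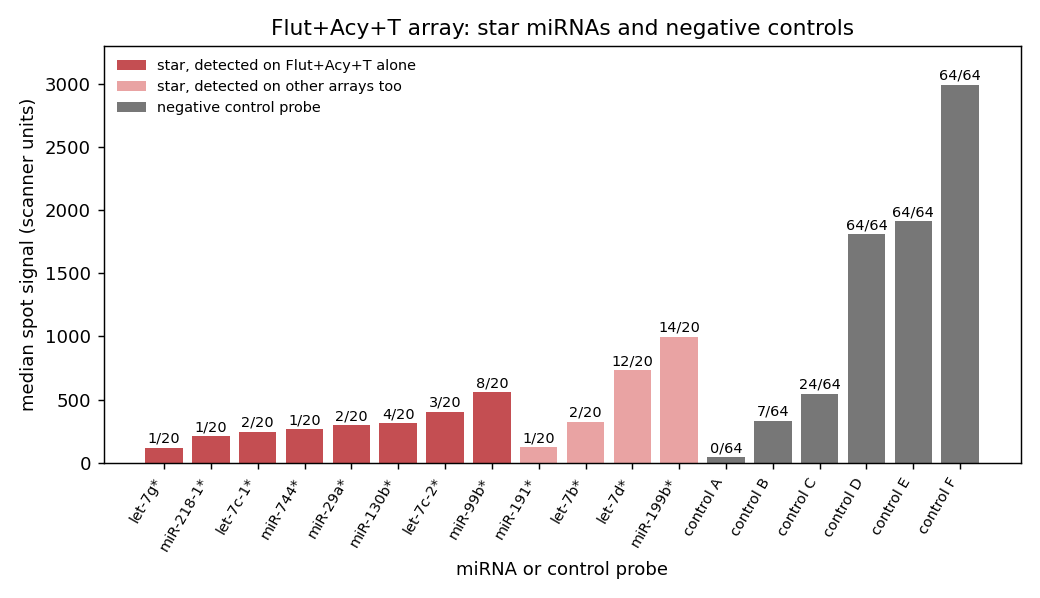
Median spot signal on the Flut+Acy+T array (y axis, scanner units) of the 12 stars detected there and of the 6 negative control probes (x axis), with the number of spots well above background over all spots on each bar. The 12 star medians all lie below the highest control median of 2992 units, and 3 control probes have 64 of 64 spots above background.

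The partners of these 8 stars did not share the pattern. let-7c, let-7g and miR-29a were detected on all 4 arrays, with 3856, 816 and 1350 units on Sham and 8995, 2724 and 4538 on Flut+Acy+T. miR-99b and miR-218 were detected on Sham and Flut+Acy and not on Flut+Acy+T, miR-130b on Flut+Acy alone, and miR-744 nowhere. Of the let-7 stars, let-7d* stood out as well: it had 5.04 units on Sham, 3.52 and 10.4 in the Flut+Acy pair and 1063 on Flut+Acy+T (error 106), with 12 of 20 spots well above background and 6 not uniform. let-7b* and miR-191*, with 457 and 260 units, had 2 and 1 spots above background there, and let-7f*, with 260 units, was not detected. By sequence, all 8 were matched. None began with U, which opened only 11 of the 78 matched stars. Their median C content was 34.1%, against 28.6% for the 15 matched stars detected on Sham or Flut+Acy. Over the matched stars detected on at least 1 array, which include the 8, it was 31.8%. It was 27.3% for all matched stars and 17.8% for the partners. The median GC content of the 8 was 47.7%, against 50% for all matched stars.

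In the comparison of Flut+Acy+T with Flut+Acy, limma called 13 of 26 stars higher (50%) and 8 lower (30.8%), where 21.5% and 53.7% of the 298 miRNAs were (75.2% in either direction). The flag on Flut+Acy+T was set for 12 of the 13, and none of the 8 lower ones was. All 8 stars detected on Flut+Acy+T alone were among the 13, and only their signal there had let them into the test. Of the 18 stars detected on Sham or Flut+Acy, 5 were higher (27.8%) and 8 lower (44.4%), nearer to the shares of all miRNAs. For the 12 stars detected on both Flut+Acy arrays and not on Flut+Acy+T only a bound can be set. On normalized values it was 1 or more for 2 of them, at least 1.55-fold lower for miR-140* and 1.26-fold for miR-135a*. Before normalization the mean signals of the 12 on Flut+Acy, up to 133 units for miR-140*, were below 238 units, the lowest signal detected on Flut+Acy+T. These bounds thus rest on the normalization. Against Sham, 10 stars were called higher on Flut+Acy+T and 9 lower, with 17.4% and 48.3% over all miRNAs (65.8% in either direction). The 10 held the same 8 stars, and of the 18 stars detected on Sham or Flut+Acy 11.1% were higher and 50% lower. Each side of that comparison is 1 array and the spread came from the Flut+Acy pair, which is in neither, so these calls describe the arrays and do not test the treatments. Both comparisons use the same Flut+Acy+T array. miR-199b*, the star detected on every array, was 1.32 higher on Flut+Acy+T than on Flut+Acy on the log2 scale (SE 0.0229, adjusted p = 0.0066) and differed by 0.07 between the Flut+Acy+T and Sham arrays. Its total signal there, with 14 of 20 spots well above background and none flagged, was 8.21 times its error. That ratio was 8.95 for miR-99b* and higher still for let-7d*, which had 7 and 6 spots not uniform. The median spot signal of miR-199b* was 996 units. It lay below the medians of negative control probes at 1810, 1913 and 2992 units, each with all 64 spots well above background. The part of the array's background in the differences of miR-199b* was not tested, and with 1 array a group it cannot be told apart from the testosterone treatment.

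Markers of cell types were checked on the same arrays. The Sertoli and gonadal somatic miRNAs miR-202-3p and miR-202-5p were detected 1, 2, 2 and 0 times of 2, in the same order of arrays. They had a summed signal of 104, 334, 366 and 8.25 units. The 3 germ cell markers (miR-34b-5p, miR-34c and miR-449a) were detected on all 3 Sham and Flut+Acy arrays. Their summed signal was 475 units on Sham, 7081 and 7333 in the Flut+Acy pair and 2924 on Flut+Acy+T. The paper lists these 3 among the miRNAs altered by Flut+Acy in purified Sertoli cells, so signal from Sertoli and germ cells cannot be told apart in them. Those of muscle and peritubular cells were detected 5, 5, 5 and 3 times of 6, with 1785, 2581, 3094 and 4571 units and miR-206 on no array. Those of endothelium were detected 2, 2, 2 and 1 times of 2, with 649, 1986, 2155 and 4013 units. The part of other cells in the star values was not tested.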

How the data were processed

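The authors deposited, for each of 4 one-colour Agilent miRNA arrays of 1 slide, the output of Feature Extraction 9.5.3.1 with linear intensity values after background subtraction and no normalization between arrays, and a table of intensity values that were quantile-normalized (MATLAB Bioinformatics Toolbox R2009a, per the methods), used as an alternative. How spots were combined in that table is not given in the sources used here. Positions are those of the files (mm9).

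From the scanner files, total gene signals of 567 mouse miRNAs were quantile-normalized, converted to log2 with values under 5.46 units raised to that floor, which is the lowest detected normalized signal of each array, taken at its median. The 3 groups were fitted in limma 3.58.1 (R 4.3.3), with a prior of 0.46 degrees of freedom. Bounds set the brighter mean against the higher of the array's lowest detected normalized signal and the star's own. Stars were named by fixed rules: detected on all arrays, highest on Sham, largest changes of star or of star less partner, largest bounded folds, star above partner on Sham, or detected on Flut+Acy+T alone. Members, lists and rules were chosen with earlier results of these data known. The number of arrays limits the precision. Processed spot signals, another background correction, scaling, floor and detection rule, no filter or a stricter filter on detection, the deposited values and leaving out arrays were tried as alternatives.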

Additional observations from a re-analysis of the deposited data

How the results depend on the processing

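No paired analysis was possible because the labels number only the Flut+Acy arrays and the other groups have 1 array each. Without either Flut+Acy array no residual degree of freedom is left, so no calls were made. The 75th percentile of miRNAs detected on all 4 arrays is called scaling A here. In Flut+Acy against Sham, 11 stars were called, 5 under scaling A, 5 over miRNAs detected on all 3 Sham and Flut+Acy arrays, 5 with the deposited values and 9 without the Flut+Acy+T array, a setting added after seeing the data. In Flut+Acy+T against Flut+Acy the count went from 21 to 35 with no filter and 7 with the stricter one, and against Sham from 19 to 37 and 6. The single-factor analysis of variance that the methods name is 1 test over the 3 groups. It gave a value for 17 of the 26 stars and for 243 miRNAs, since equal Flut+Acy values leave no spread. After Benjamini-Hochberg adjustment it called 0 of either. At an unadjusted p under 0.05 there were 9 of the 17 stars, beside 130 of the 243 miRNAs. Pairs called went from 9 to 0 under scaling A, with no normalization and with the deposited values, to 37 with no filter and 3 with the stricter one, and were 6 without Flut+Acy+T. Shares of all miRNAs and all pairs called by limma are given for the main fit alone. The counts called under the other settings thus have no such share beside them. Stars past 2-fold went from 6 to 3 under scaling A, 13 with no normalization, 1 with normexp, 12 with no filter and 2 with the stricter filter, and to 2 to 6 when an array was left out. The shares of stars higher and lower were 72.2% and 0% with no normalization, beside 74.9% and 0.353% of all miRNAs. They were 0% and 5.56% with normexp, beside 6.36% and 1.06%, and 0% and 13.6% with no filter, beside 11.8% and 11.8%. With the stricter filter they were 0% and 25%, beside 13.8% and 18.5%. Detected stars were 15 on Sham with at least 1 spot well above background, and 9 on the second Flut+Acy array and 2 on Flut+Acy+T where all spots of a probe had to be.

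Signs turned as follows in log2 differences from Sham. Under scaling A, let-7b* went to 0.17, let-7f* to 0.17, miR-22* to 0.12, miR-30a* to 0.77, miR-30e* to 0.80, miR-30c-2* to 0.20, miR-191* to 0.80, miR-483* to 0.47, the star median to 0.18 and the partner median to 0.45. With no normalization let-7b* went to 1.52, let-7f* to 1.52, miR-22* to 1.47, miR-30a* to 2.12, miR-30e* to 2.15, miR-30c-2* to 1.55, miR-191* to 2.15, miR-483* to 1.82, miR-712* to 1.10, miR-150* to 0.34, miR-199b* to 0.50, let-7d* to 0.26, the star median to 1.53 and the partner median to 1.80. miR-30c-2* less miR-30c went from -0.26 to 0.22 with normexp, 0.14 under either 75th percentile scaling and with no normalization, and 0.46 with the deposited values. With the latter miR-191* went to 0.31 and miR-30e* to 0.24. With the 75th percentile over all miRNAs miR-140* went to -0.06, and the other crossings of 0, by miR-140*, miR-30a*, miR-30e* and miR-191*, were to values under 0.05 in size. With no filter miR-199b*, miR-150*, miR-712*, let-7b* and let-7f* were no longer called lower. Depth of signal limits the stars, most of which lie at background, and on Flut+Acy+T those below about 238 units were not detected.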
